A study of Mus musculus with 30 samples.

Results

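The genes described are 10 immediate early genes that encode transcription factors: Fos, Fosb, Jun, Junb, Atf3, Egr1, Egr2, Egr3, Nr4a1 and Nr4a3. They were chosen by name out of the 33076 genes in a count table of mouse diaphragm RNA. All 10 had enough counts to be tested in each comparison below. Transcripts of this kind are known to respond to muscle activity and to handling at dissection, so the level in each animal is given beside the group means.

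Immediate early genes are transcribed within minutes of a stimulus from factors that are already present in the cell, without new protein synthesis. The proteins of Fos and Fosb pair with those of Jun and Junb to form AP-1, a DNA-binding dimer. Atf3 belongs to the ATF/CREB family, pairs with Jun proteins and is known for its rise in injured or stressed cells. Egr1, Egr2 and Egr3 are zinc-finger factors that follow growth factor and MAP kinase signals, and Egr2 is also the factor that Schwann cells need for myelination. Nr4a1 (Nur77) and Nr4a3 (Nor1) are orphan nuclear receptors that skeletal muscle induces on exercise and on adrenergic signalling, and Nr4a1 is known to act on genes of glucose use in muscle. Calcium and cyclic AMP reach several of these promoters through CREB, which binds the cyclic AMP response element (CRE), and MAP kinase signals reach them through serum response factor, which binds the CArG box.

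The animals model spinal and bulbar muscular atrophy (SBMA), a disease of motor neurons and muscle caused by a lengthened glutamine tract in the androgen receptor. SBMA mice carried BACfxAR121, a bacterial artificial chromosome transgene of the human androgen receptor flanked by loxP sites, and the genotype label spells it BACfxR121. Controls were muscle-rescued littermates, HSA-Cre;BACfxAR121, which carry the same transgene together with a Cre recombinase under the human skeletal actin promoter that removes it in muscle fibres, so the transgene remained in other cells of both genotypes. All animals were male. At 15 weeks of age 3 controls and 4 SBMA mice were sampled, and at 26 weeks 4 of each. Each diaphragm gave a perisynaptic library, from the strip that holds neuromuscular junctions, and an extrasynaptic library from muscle outside it, which makes 8 groups and 30 libraries from 15 animals. Each library had between 16280873 and 34694446 counts assigned to genes, and the 10 genes together took 0.018% to 0.0646% of them. Animals are named by genotype, age and replicate number. The p-values for genotype and age rest on the spread between these animals. Those for the pieces rest on how the difference between the pieces varies from animal to animal.

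The stretches before the transcription start of 4 members with called differences are shown. Nr4a1 and Atf3 differed between genotypes, Fos and Atf3 between ages, and Egr2 between pieces. Egr1, called in comparisons of genotype, age and piece, and Fosb, called between ages, are not shown. Each stretch is the 250 bases before a RefSeq start, 5′ to 3′ on the strand of the gene, in build GRCm38.p6. Capitals mark the CRE half-site TGACG, read on either strand, so that CGTCA is the same site on the opposite strand.
Nr4a1, chr15:101266596-101266845, plus strand: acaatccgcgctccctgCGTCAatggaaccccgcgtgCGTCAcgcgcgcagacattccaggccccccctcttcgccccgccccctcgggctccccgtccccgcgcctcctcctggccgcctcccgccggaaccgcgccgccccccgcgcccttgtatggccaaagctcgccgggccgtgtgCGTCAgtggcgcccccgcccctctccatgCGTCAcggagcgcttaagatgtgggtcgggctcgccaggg
Atf3, chr1:191183334-191183583, minus strand: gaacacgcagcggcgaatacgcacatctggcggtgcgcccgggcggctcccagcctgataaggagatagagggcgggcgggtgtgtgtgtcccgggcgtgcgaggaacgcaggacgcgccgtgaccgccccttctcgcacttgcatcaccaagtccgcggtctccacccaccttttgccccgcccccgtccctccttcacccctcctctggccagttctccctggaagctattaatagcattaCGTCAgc
Fos, chr12:85473640-85473889, plus strand: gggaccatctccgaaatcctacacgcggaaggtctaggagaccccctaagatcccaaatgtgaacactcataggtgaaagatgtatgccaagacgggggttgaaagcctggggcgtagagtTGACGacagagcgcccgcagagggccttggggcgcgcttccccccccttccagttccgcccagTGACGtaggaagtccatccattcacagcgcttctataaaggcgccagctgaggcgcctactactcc
Egr2, chr10:67537619-67537868, plus strand: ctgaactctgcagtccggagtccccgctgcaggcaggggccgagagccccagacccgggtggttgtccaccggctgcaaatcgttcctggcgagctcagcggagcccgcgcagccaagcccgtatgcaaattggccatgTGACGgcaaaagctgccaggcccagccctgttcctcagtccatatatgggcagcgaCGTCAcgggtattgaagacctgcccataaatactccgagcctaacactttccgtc

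The Fos stretch ends at the start of the gene, and those of Nr4a1, Atf3 and Egr2 lie in an intron of a longer transcript that GENCODE vM21 annotates for the same gene. The half-site lay 233, 213, 69 and 40 bases before the start of Nr4a1, 129 and 66 bases before that of Fos, 111 and 55 before that of Egr2, and 7 before that of Atf3. RefSeq windows, which hold 50 further bases after the start, were searched for 8 of the 10 members, all but Egr1 and Egr3. Windows on chromosome 18, where Egr1 lies, were left out for members but kept among all windows. The half-site TGACG was present on either strand in 7 of those 8 genes, Jun being the exception, against 20.8% of all 32851 windows of 300 bases. Egr2 has several windows, only some of which overlap each other, while the other members have a single one. More sequence was thus searched for Egr2. The full element TGACGTCA, which contains the half-site, was in no member window and in 1.79% of all windows. The AP-1 site TGANTCA was likewise in none (7.81% of all windows), as was the Nr4a element AAAGGTCA (1.51%). The Egr site GCGNGGGCG was in the windows of Fosb and Nr4a1 (5.55% of all), and a CArG box, searched by name, in that of Egr2, 72 bases before the start shown (1.63% of all). These are matches of letters within the windows.

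Levels are given in CPM, the usual unit of counts relative to the library total, scaled between libraries by edgeR's trimmed mean of M-values. Compared per kilobase of exon, Jun and Nr4a1 were the most abundant, with medians over the 30 libraries of 26 and 22.3 CPM per kilobase. Junb (10.2), Fos (9.43) and Atf3 (5.63) followed, then Nr4a3 (3.42) and Egr1 (3.41) at nearly the same median. Egr2 (0.453), Egr3 (0.196) and Fosb (0.15) were the lowest, with as few as 8, 6 and 8 counts in a library. Jun overlaps an antisense gene, Junos, which had a median of 42.5 counts, and Junb overlaps Prdx2 on the opposite strand, with a median of 4696.5 counts. Reads from the overlapped parts cannot be told apart unless the counting used strand, which is not given in the sources used here.

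**Figure D1:**
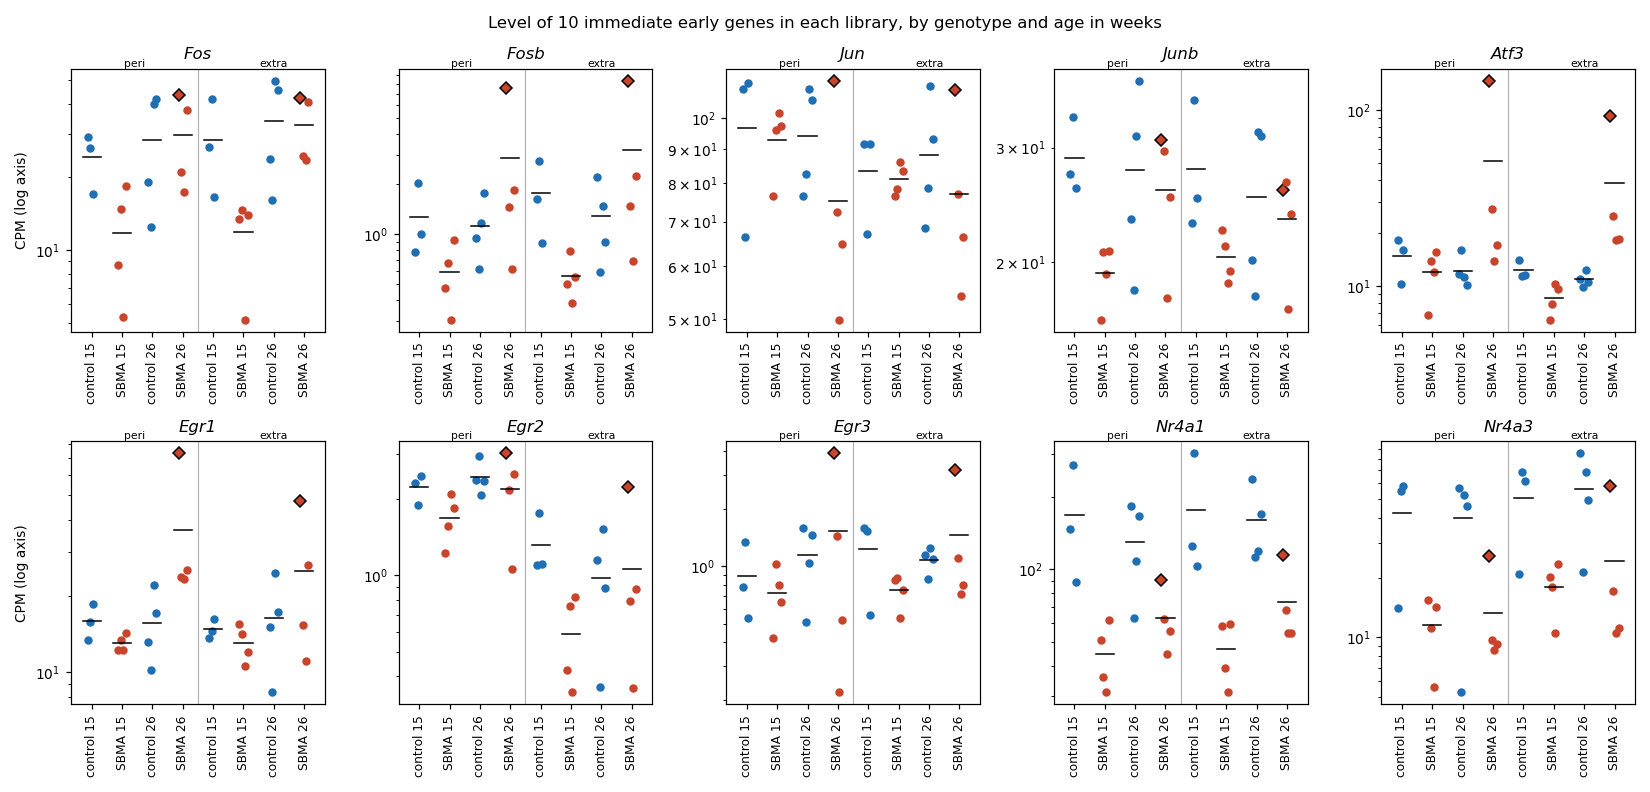
Level of each of the 10 genes in every library, in CPM on a log axis, by group; each point is a library, the line is the group mean and the diamond is SBMA 26-week replicate 1. The group means of Nr4a1 and Nr4a3 were lower in SBMA than in controls of the same age and piece. Values of the genotypes overlapped for Nr4a3 at both ages and for Nr4a1 at 26 weeks, in both pieces. Nr4a1 passed the edgeR test of genotype in the extrasynaptic piece at both ages and not in the perisynaptic piece, and Nr4a3 passed in neither. Atf3, Egr1, Egr2, Egr3 and Fosb had their highest values in the diamond library of each piece.

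At 15 weeks all 10 genes had a lower estimate in SBMA than in control diaphragm in both pieces, and Nr4a1 passed the test in the extrasynaptic piece. In extrasynaptic libraries Nr4a1 stood at 125, 302 and 104 CPM in controls 1 to 3. SBMA animals 1 to 4 had 58.3, 39.2, 31 and 59.6 CPM. Every SBMA library lay below every control library, and the control spread came mainly from control replicate 2, the highest of the series. The means were 47 ± 14.2 (SD, n = 4) in SBMA and 177 ± 108.9 (SD, n = 3) in controls, a log2 difference of -1.91 ± 0.376 (SE; edgeR quasi-likelihood test, Benjamini-Hochberg adjusted p = 0.0189). Nr4a1 was thus the 1 member called in that comparison, in which 1.22% of the 15526 genes tested were called in either direction. There, 6 members had an unadjusted edgeR p under 0.05, beside 14.4% of all genes. The call did not hold without control replicate 2, where the log2 difference was -1.28 (edgeR adjusted p = 0.0831), nor without SBMA replicate 2 (adjusted p = 0.0666) or SBMA replicate 3 (adjusted p = 0.0748). With the run of consecutive animal numbers as a block, since 3 of the SBMA mice and 1 control came from the lower run, it was -1.65 (adjusted p = 0.0561).

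Perisynaptic Nr4a1 at 15 weeks took nearly the same values, 147, 270 and 88.5 CPM in controls and 50.9, 36, 31 and 61.6 in SBMA. Again the genotypes did not overlap. The log2 difference was -1.92 ± 0.389, with an edgeR adjusted p of 0.0635. No member was called by edgeR in that comparison, in which 0.21% of 15735 genes were, while DESeq2 called Nr4a1 (adjusted p = 0.000324). An unadjusted edgeR p under 0.05 was found for 4 members, beside 7.11% of all genes.

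Nr4a3, the related receptor, was at 14.1, 54.9 and 58.5 CPM in perisynaptic controls and at 15.4, 11.1, 5.6 and 14.2 in SBMA at 15 weeks. Control replicate 1 lay inside the SBMA range and the other two controls above it. In the extrasynaptic piece the order was the same, with 20.8, 68.8 and 61.5 CPM in controls and 20.2, 17.9, 10.4 and 23.5 in SBMA. The log2 differences, -1.88 ± 0.634 and -1.48 ± 0.573, did not pass the edgeR test (adjusted p = 0.432 and 0.242).

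Among the AP-1 genes, Fos in extrasynaptic muscle at 15 weeks was at 26.5, 41.7 and 16.6 CPM in controls and at 13.5, 14.7, 5.19 and 14 in SBMA. No SBMA library reached a control library, and SBMA replicate 3 was the lowest of the series. The log2 difference of -1.26 ± 0.414 did not pass (edgeR adjusted p = 0.165). Perisynaptic Fos was at 29.3, 26.2 and 17 CPM in controls and at 8.68, 14.8, 5.3 and 18.4 in SBMA, where replicate 4 exceeded the lowest control (log2 difference -1.05 ± 0.453, edgeR adjusted p = 0.647). Junb was at 22.9, 35.6 and 25 CPM in extrasynaptic controls and at 22.4, 21.2, 18.6 and 19.3 in SBMA, a small separation in which SBMA replicate 1 almost met the lowest control. Jun, in contrast, had log2 differences of -0.06 ± 0.243 and -0.04 ± 0.201 in perisynaptic and extrasynaptic muscle. Fosb, at 0.88 to 2.76 CPM in extrasynaptic controls and 0.384 to 0.792 in SBMA, differed by -1.65 ± 0.736 on the log2 scale (edgeR adjusted p = 0.319).

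Groups that did not overlap were seen for 6 members in the extrasynaptic piece at 15 weeks, Fos, Fosb, Junb, Atf3, Egr2 and Nr4a1, all lower in SBMA, beside 15.8% of all genes in either direction. In the perisynaptic piece they were seen for 2 members, Junb and Nr4a1, beside 11.8% of all genes. The median log2 difference over the 10 genes was -0.49 in perisynaptic and -0.93 in extrasynaptic muscle, while over all genes tested it was -0.01 in each. Below 0 lay all 10 members in both pieces, and 52.4% and 51.1% of all genes. The pieces come from the same few mice. Members also varied together between libraries, with correlations of up to 0.79 after removal of the group means. The 10 are thus not separate observations, and their count cannot be set against the share of all genes as such. With scaling by total counts alone, which raised the median of all genes to 0.07 and 0.19, 9 and 8 members lay below 0 and all 10 below that median. In bulk muscle, fewer cells of a type and less RNA per cell cannot be told apart. The summed level of 8 skeletal muscle fibre markers (Acta1, Ckm, Ttn, Des, Myh1, Myh2, Myh4 and Myh7, none at 0) was 96888 to 110747 CPM in controls and 64883 to 75461 CPM in SBMA at 15 weeks, and its part in these differences was not tested.

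**Figure D2:**
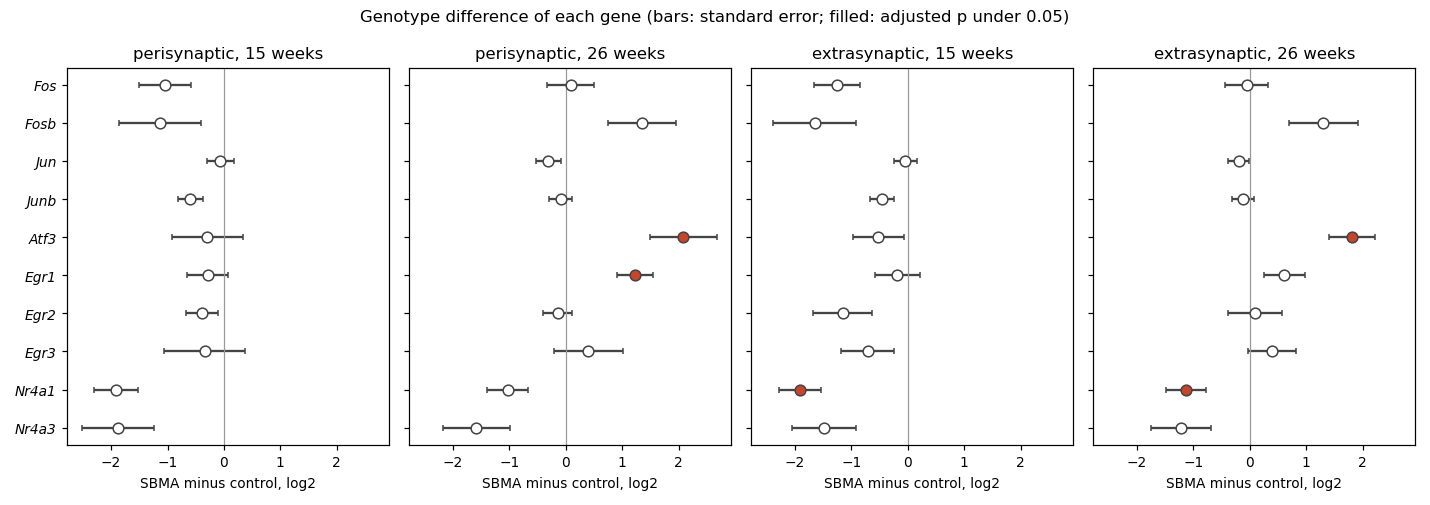
Difference between SBMA and control in each gene on the log2 scale (points) with its standard error (bars), in both pieces and at both ages; filled points passed the edgeR test at an adjusted p of 0.05. At 15 weeks every point lay below 0 (9 and 8 of 10 with total-count scaling), and at 26 weeks Atf3, Egr1, Fosb and Egr3 lay above 0 and Nr4a1 and Nr4a3 below it in both pieces.

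At 26 weeks the members went in different directions: Atf3 was higher in SBMA in both pieces, Egr1 was higher in the perisynaptic piece and Nr4a1 was lower in the extrasynaptic piece. Extrasynaptic Atf3 stood at 10.9, 9.83, 12.3 and 10.5 CPM in controls. SBMA animals had 91.8, 24.8, 18.2 and 18.5 CPM. All 4 SBMA libraries lay above all 4 controls, and replicate 1 lay far above the other SBMA libraries. The log2 difference was 1.81 ± 0.415 (edgeR adjusted p = 0.00395), and without SBMA replicate 1, where the SBMA mean was 20.5 ± 3.71 (SD, n = 3), it was 0.91 ± 0.156 (adjusted p = 0.000816). Atf3 passed the test in all 8 fits that left out 1 animal of the groups compared. Within the 4 animals of the lower run of animal numbers, which holds SBMA replicates 1 and 2, the difference was 2.49 (edgeR adjusted p = 0.00242), and within the 4 of the higher run it was 0.69 (adjusted p = 0.34).

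Perisynaptic Atf3 at 26 weeks was at 11.7, 15.9, 11.2 and 10.1 CPM in controls and at 147, 27.3, 13.9 and 17 CPM in SBMA. Replicate 1 was again the highest, and replicate 3 fell within the control range. The log2 difference of 2.08 ± 0.591 passed the edgeR test (adjusted p = 0.0283). It was 0.68 ± 0.282 without SBMA replicate 1 and then did not pass (adjusted p = 0.136), and the call was also lost without control replicate 1, 3 or 4 (adjusted p = 0.0687, 0.0635 and 0.0633). With only the libraries of the groups compared in the fit it was 2.07 (adjusted p = 0.102), and with a replicate block 1.34 (adjusted p = 0.0856). In the lower run of animal numbers the difference was 2.67 (adjusted p = 0.0187) and in the higher run 0.55 (adjusted p = 0.653).

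Perisynaptic Egr1 at 26 weeks was at 13.2, 10.2, 22.2 and 17.1 CPM in controls and at 73.3, 23.8, 23.4 and 25.4 CPM in SBMA. Without replicate 1 the SBMA libraries were tightly grouped just above the highest control, with a mean of 24.2 ± 1.05 (SD, n = 3). The log2 difference was 1.23 ± 0.328 (edgeR adjusted p = 0.0206), 0.63 without SBMA replicate 1 (adjusted p = 0.0506) and 1.15 without control replicate 1 (adjusted p = 0.0607). With only the libraries of the groups compared in the fit the adjusted p was 0.093. In the lower and the higher run of animal numbers it was 2.06 (adjusted p = 0.00823) and 0.32 (adjusted p = 0.68). In the extrasynaptic piece the genotypes overlapped, with Egr1 at 15.2, 8.33, 24.7 and 17.4 CPM in controls and 47.7, 15.4, 11.1 and 26.5 in SBMA (log2 difference 0.61 ± 0.365, adjusted p = 0.214). Atf3 and Egr1 were the 2 members called in the perisynaptic piece, where 14% of all genes were called, and Egr1 was the 1 member whose groups did not overlap, beside 18.6% of all genes. Unadjusted edgeR p-values under 0.05 were found for 5 members, beside 28.7% of all genes.

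Nr4a1 at 26 weeks was lower in SBMA in the extrasynaptic piece, with 236, 113, 119.2 and 169 CPM in controls and 115, 67.7, 54.7 and 54.7 in SBMA. The ranges touched only through SBMA replicate 1, which lay just above control replicate 2. The log2 difference was -1.13 ± 0.35 (edgeR adjusted p = 0.023), and it was -1.43 without SBMA replicate 1 (adjusted p = 0.00969). The call was lost without control replicate 1 (-0.88, adjusted p = 0.0816) or SBMA replicate 2, 3 or 4 (adjusted p = 0.0562, 0.068 and 0.0592). In the lower and higher runs of animal numbers the difference was -0.94 (adjusted p = 0.17) and -1.40 (adjusted p = 0.0803). Atf3 and Nr4a1 were the 2 members called in that comparison, in which 32.2% of all genes were called, and Atf3 was the 1 member whose groups did not overlap, beside 30.1% of all genes. Unadjusted edgeR p-values under 0.05 were found for 3 members, beside 43.2% of all genes.

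Perisynaptic Nr4a1 at 26 weeks was at 182, 62.9, 108 and 167 CPM in controls and at 90.4, 62.2, 44.7 and 55.5 in SBMA. Control replicate 2 lay inside the SBMA range. The log2 difference of -1.03 ± 0.362 did not pass the edgeR test (adjusted p = 0.0703) and passed with DESeq2 (adjusted p = 0.0263). Nr4a3 at 26 weeks was at 57, 5.25, 52.5 and 45.9 CPM in perisynaptic controls and at 25.7, 9.7, 8.57 and 9.28 in SBMA, with control replicate 2 below every SBMA library. Its extrasynaptic values were 85.1, 21.4, 68.4 and 49.5 CPM in controls and 57.9, 17.1, 10.5 and 11.1 in SBMA, where SBMA replicate 1 stood among the controls. The log2 differences of -1.59 ± 0.594 and -1.22 ± 0.536 did not pass (edgeR adjusted p = 0.0891 and 0.0932).

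The remaining members overlapped between genotypes at 26 weeks. Fosb was at 0.612 to 1.77 CPM in perisynaptic controls and at 7.59, 1.45, 0.617 and 1.84 in SBMA, where the mean rested on replicate 1 (log2 difference 1.36 ± 0.605, edgeR adjusted p = 0.153). Its extrasynaptic difference was 1.31 ± 0.618 (adjusted p = 0.118). Fos, Jun, Junb, Egr2 and Egr3 had log2 differences between -0.31 and 0.40 in both pieces. The median over the 10 genes was -0.00 in perisynaptic and 0.02 in extrasynaptic muscle, beside -0.02 and -0.03 over all genes. Without SBMA replicate 1 the medians were -0.26 in each piece, with 7 members below 0. Within the lower run of animal numbers they were 0.80 and 0.86, with 3 and 2 members below 0, and within the higher run -0.62 and -0.63, with 8 below 0 in each. The fibre marker sum was 80452 to 101916 CPM in controls and 44838 to 57392 CPM in SBMA at 26 weeks. In extrasynaptic muscle at that age the marker sums of macrophages (291 to 406 CPM in controls, 204 to 235 in SBMA), endothelium (684 to 919, 557 to 634), mesothelium (278 to 318, 93.6 to 258) and smooth muscle (596 to 674, 457 to 517) were also lower in SBMA without overlap. In perisynaptic muscle the sums of endothelium (654 to 1048, 580.1 to 611) and smooth muscle (500.3 to 617, 437 to 455) were lower without overlap. The satellite cell sum was higher without overlap in both pieces (43.3 to 51.6 CPM in extrasynaptic controls, 55.1 to 75.1 in SBMA, and 41.8 to 51 against 60.0 to 72.5 in perisynaptic muscle). Sums for fibroadipogenic progenitors, neutrophils, adipocytes and red blood cells overlapped between genotypes in each comparison. The neutrophil markers Retnlg and Cxcr2 were at 0 in 7 and 5 of the 30 libraries and the adipocyte marker Lep in 2, and the part of these cell types in the differences was not tested.

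In controls no difference of a member between 15 and 26 weeks was detected. With 3 and 4 animals the standard errors reached 0.70 on the log2 scale (Egr3, perisynaptic). The tests called 0 of 10 members in either piece with edgeR and 0 with DESeq2. Of all genes, edgeR called 0% in the perisynaptic and 0% in the extrasynaptic comparison, where DESeq2 called 0.315% and 0.329%. No member had an unadjusted edgeR p under 0.05, beside 5.66% of all genes in perisynaptic and 6.67% in extrasynaptic muscle. In SBMA mice 9 of 10 members had a higher estimate at 26 weeks in each piece, Jun being the exception (with total-count scaling Jun too was above 0 in extrasynaptic muscle), with a median of 0.79 in perisynaptic and 0.87 in extrasynaptic muscle. Without 26-week replicate 1 the medians were 0.31 and 0.27, with 2 members below 0 in each piece. All 26-week animals had lower animal numbers than the 15-week animals, so age and number run cannot be told apart.

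Extrasynaptic Fos in SBMA mice rose from 13.5, 14.7, 5.19 and 14 CPM at 15 weeks to 42, 24.4, 23.4 and 40.5 CPM at 26 weeks. Every older animal lay above every younger one. The log2 difference was 1.45 ± 0.39 (edgeR adjusted p = 0.0243), and it lost the call without SBMA 26-week replicate 1 (1.31, adjusted p = 0.0681) or 15-week replicate 1 or 3 (adjusted p = 0.0502 and 0.0564). Atf3 rose from 6.42, 7.92, 10.3 and 9.6 CPM to the 26-week values above, again without overlap, by 2.16 ± 0.42 (edgeR adjusted p = 0.00393). Without SBMA 26-week replicate 1 the rise of Atf3 was 1.26 ± 0.156 (adjusted p = 0.000444), and it passed in all 8 fits that left out 1 animal. Fosb rose from 0.5, 0.792, 0.384 and 0.547 CPM to 8.39, 1.48, 0.684 and 2.22, by 2.48 ± 0.669 (edgeR adjusted p = 0.025). Without 26-week replicate 1 the Fosb difference was 1.36 (adjusted p = 0.107), and the call was also lost without 15-week replicate 1, 3 or 4 (adjusted p = 0.0663, 0.061 and 0.063). These 3 members were called beside 12.1% of all genes, and Fos and Atf3 were the 2 without overlap, beside 23.4% of all genes.

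In the perisynaptic piece of SBMA mice Egr1 rose between the ages, from 12.2, 13.5, 12.2 and 14.4 CPM to 73.3, 23.8, 23.4 and 25.4 CPM. The ages did not overlap. The log2 difference was 1.49 ± 0.331 (edgeR adjusted p = 0.0174) and 0.90 ± 0.195 without 26-week replicate 1 (adjusted p = 0.0245), and the call was lost without 15-week replicate 1, 2 or 3 (adjusted p = 0.0587, 0.0544 and 0.0501). Egr1 was the 1 member called, beside 3.95% of all genes, and the 1 member without overlap, beside 16.1%. Perisynaptic Fos, at 8.68, 14.8, 5.3 and 18.4 CPM at 15 weeks and 43.5, 20.9, 17.4 and 37.5 at 26 weeks, overlapped by a single library and did not pass (1.35 ± 0.426, edgeR adjusted p = 0.0948).

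The difference between the ages in the genotype effect was tested directly. For Atf3 it was 2.34 ± 0.61 on the log2 scale in the extrasynaptic piece (edgeR adjusted p = 0.0672) and 2.38 ± 0.854 in the perisynaptic piece (adjusted p = 0.373). In the extrasynaptic test edgeR called 0 members, beside 1.73% of all genes, and DESeq2 called 2, Fosb and Atf3. With edgeR 3 members had an unadjusted p under 0.05, beside 15.7% of all genes. In the perisynaptic test edgeR and DESeq2 called 0 members, beside 0.375% of all genes for edgeR. Again 3 members had an unadjusted edgeR p under 0.05, beside 8.28% of all genes. Without SBMA 26-week replicate 1 the extrasynaptic value for Atf3 was 1.44 ± 0.223 and passed (edgeR adjusted p = 0.0111). For Nr4a1 the difference between ages was 0.79 ± 0.509 and 0.88 ± 0.526 in the extrasynaptic and perisynaptic pieces (adjusted p = 0.488 and 0.749), so its genotype effects at 15 and 26 weeks were not shown to differ.

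Between the pieces of the same diaphragm, Egr2 was higher in the perisynaptic piece in all 15 animals. In 26-week controls it was at 2.38, 2.96, 2.07 and 2.34 CPM in perisynaptic and 1.14, 0.362, 1.52 and 0.891 CPM in extrasynaptic muscle. In 15-week SBMA mice it was at 1.22, 1.56, 2.1 and 1.83 against 0.423, 0.756, 0.346 and 0.82 CPM. In both groups the lowest perisynaptic value exceeded the highest extrasynaptic value. Between pieces, the share of all genes with such a separation, or with the same direction in all 15 animals, was not computed. The log2 differences, from a fit that compares pieces within animals, were 1.33 ± 0.314 in the former (edgeR adjusted p = 0.0476) and 1.51 ± 0.344 in the latter (adjusted p = 0.0448). Egr2 was the 1 member called in each of these comparisons, beside 1.18% of all genes in 26-week controls and 0.948% in 15-week SBMA mice. Egr2 had at most 85 counts in a library. In 15-week SBMA mice the call was lost on leaving out any of the 4 animals (edgeR adjusted p from 0.0818 to 0.382). In 26-week controls it was lost on leaving out replicate 1, 2 or 4 (adjusted p = 0.141, 0.295 and 0.168). The part of the low counts in these losses was not tested.

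In 15-week controls Egr2 was at 2.3, 1.89 and 2.46 CPM in perisynaptic and 1.1, 1.75 and 1.11 CPM in extrasynaptic muscle, again without overlap, and the log2 difference of 0.73 ± 0.352 did not pass (edgeR adjusted p = 0.638). No member was called in that group by edgeR or DESeq2, beside 1.16% of all genes for edgeR. There, 1 member had an unadjusted edgeR p under 0.05, beside 7.92% of all genes. In 26-week SBMA mice Egr2 was at 3.01, 2.17, 1.05 and 2.49 against 2.22, 0.79, 0.358 and 0.88 CPM, and the log2 difference was 1.14 ± 0.309 (edgeR adjusted p = 0.0657). The 1 member called there, beside 2.07% of all genes, was Egr1, higher in the perisynaptic piece in 3 of 4 animals by 0.56 ± 0.13 (adjusted p = 0.0333). That Egr1 call was lost without SBMA replicate 1, 2 or 3 (adjusted p = 0.207, 0.174 and 0.0955).

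Sox10, a defining factor of the Schwann cell lineage, and S100b, a calcium-binding protein of Schwann cells, moved with Egr2 between the pieces. Both were called higher in the perisynaptic piece in each of the 4 groups, Sox10 by 2.40 to 2.77 and S100b by 1.63 to 3.18 on the log2 scale. In 26-week controls Sox10 was at 3.47 ± 1.96 CPM in perisynaptic and 0.469 ± 0.0504 in extrasynaptic muscle (SD, n = 4 each), a log2 difference of 2.77 ± 0.337 (edgeR adjusted p = 0.000102). The part of Schwann cells in the Egr2 difference was not tested.

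Nr4a3 went the other way, with a lower level in the perisynaptic than in the extrasynaptic piece of all 15 animals. The log2 differences were -0.31 ± 0.224 and -0.65 ± 0.197 in 15-week and 26-week controls and -0.66 ± 0.213 and -0.68 ± 0.211 in 15-week and 26-week SBMA mice. None of them passed the edgeR test (adjusted p = 0.902, 0.168, 0.283 and 0.0958). Nr4a1 was lower in the perisynaptic piece in all 4 of the 26-week controls (log2 difference -0.34 ± 0.107, edgeR adjusted p = 0.187), and its differences in the other groups were -0.05, -0.07 and -0.19. The genotype effects were not shown to differ between the pieces: edgeR and DESeq2 called 0 members at 15 weeks, beside 0% of all genes for edgeR, and 0 at 26 weeks, beside 0.0124%. At 15 and 26 weeks 0 and 1 members had an unadjusted edgeR p under 0.05, beside 2.61% and 3.04% of all genes.

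**Figure D3:**
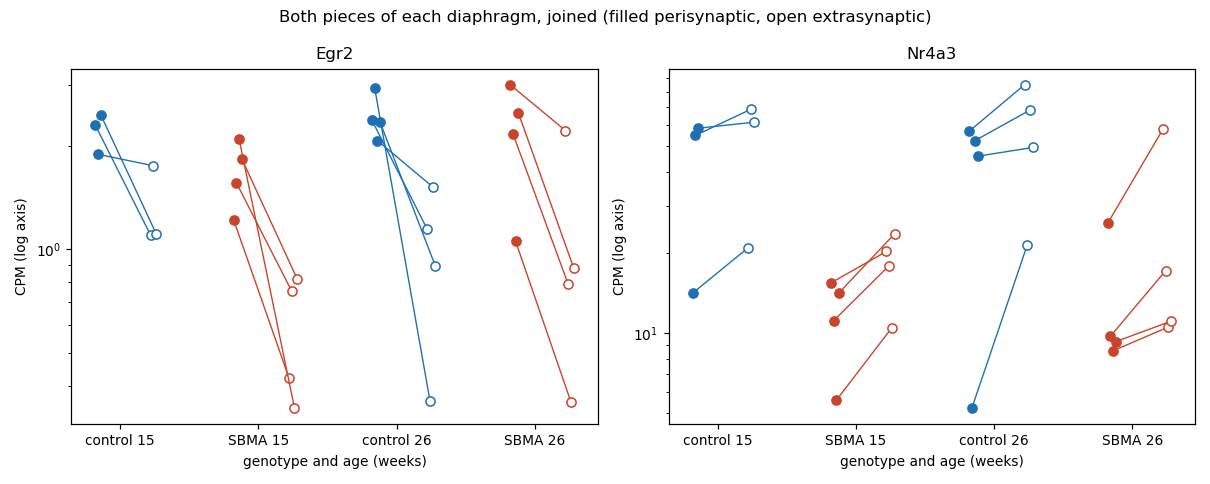
Egr2 (left) and Nr4a3 (right) in both pieces of each of the 15 diaphragms, in CPM on a log axis, by genotype and age; lines join the perisynaptic piece (filled) and the extrasynaptic piece (open) of an animal. Egr2 was higher and Nr4a3 lower in the perisynaptic piece of every animal. Nr4a3 passed no edgeR test between the pieces, and the share of all genes with the same direction in every animal was not computed.

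Most of these genes varied more between animals of a group than other genes did. The pooled within-group SD of log2 CPM was 1.12 for Nr4a3 and 0.987 for Egr3 in perisynaptic muscle, where the median over all genes was 0.259. In extrasynaptic muscle it was 0.945 for Fosb and 0.893 for Nr4a3, beside a median of 0.197. By percentile among all genes tested, Fos (97 perisynaptic, 96.9 extrasynaptic), Fosb (98.9, 99.2), Atf3 (98.7, 95.6), Egr3 (99.1, 96) and Nr4a3 (99.4, 99) ranked among the most variable genes in both pieces. The rank of Atf3 rested largely on the SBMA 26-week group, where replicate 1 lay 2.23 and 1.63 log2 units above the group mean. Libraries of the other groups deviated for Atf3 by -0.74 to 0.44 in perisynaptic and by -0.39 to 0.28 in extrasynaptic muscle. Nr4a1 stood at 93.6 and 94. Jun (70.9, 71.4) and Junb (66.3, 73.3) were nearer to the rest of the genes, and Egr2 stood at 75.9 in perisynaptic and 98 in extrasynaptic muscle. These SDs include counting error, which is larger for the low counts of Egr2, Egr3 and Fosb.

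A high or low level was often shared by the pieces of a diaphragm. Fos, Jun, Nr4a1 and Nr4a3 lay on the same side of their group mean in both pieces in 14 of 15 animals, Junb in 12, Fosb and Egr1 in 11, Atf3 in 10 and Egr3 in 9. Over all genes the median was 10 animals, with quartiles of 8 and 11. Egr2 stood below the lower quartile, with 5 of 15.

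SBMA 26-week replicate 1 lay above its group mean for all 10 genes in both pieces, with a median deviation of 0.89 log2 units in perisynaptic and 1.20 in extrasynaptic muscle. Of all genes, 53.7% and 52.3% lay above the group mean in those libraries. SBMA 26-week replicate 3 lay below for all 10 in both pieces, by a median of -0.60 and -0.69. Control 26-week replicate 2 was above for 2 members in the perisynaptic and 0 in the extrasynaptic piece, by a median of -0.63 and -0.66, and it held the lowest Nr4a3 level of the series, 5.25 CPM. The totals of SBMA 26-week replicate 1, 23548159 perisynaptic and 21160671 extrasynaptic counts, lay within the range of the series, and mitochondrial genes took 10.4% and 10.8% of them. Its summed level of 5 neutrophil markers was 3.19 and 2.56 CPM, the highest of its group in both pieces, against up to 18.2 CPM in 15-week controls. Its satellite cell marker sum, 72.5 and 75.1 CPM over 6 markers, was also the highest of its group, as was its sum for fibroadipogenic progenitors, 2141 and 1863 CPM, against 1492 to 1866 and 1317 to 1560 in the others. The gene Gm42418 took 0.542% and 0.615% of its counts, the lowest share of the series in each piece. The part of these cells and of library quality in its levels was not tested.

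**Figure D4:**
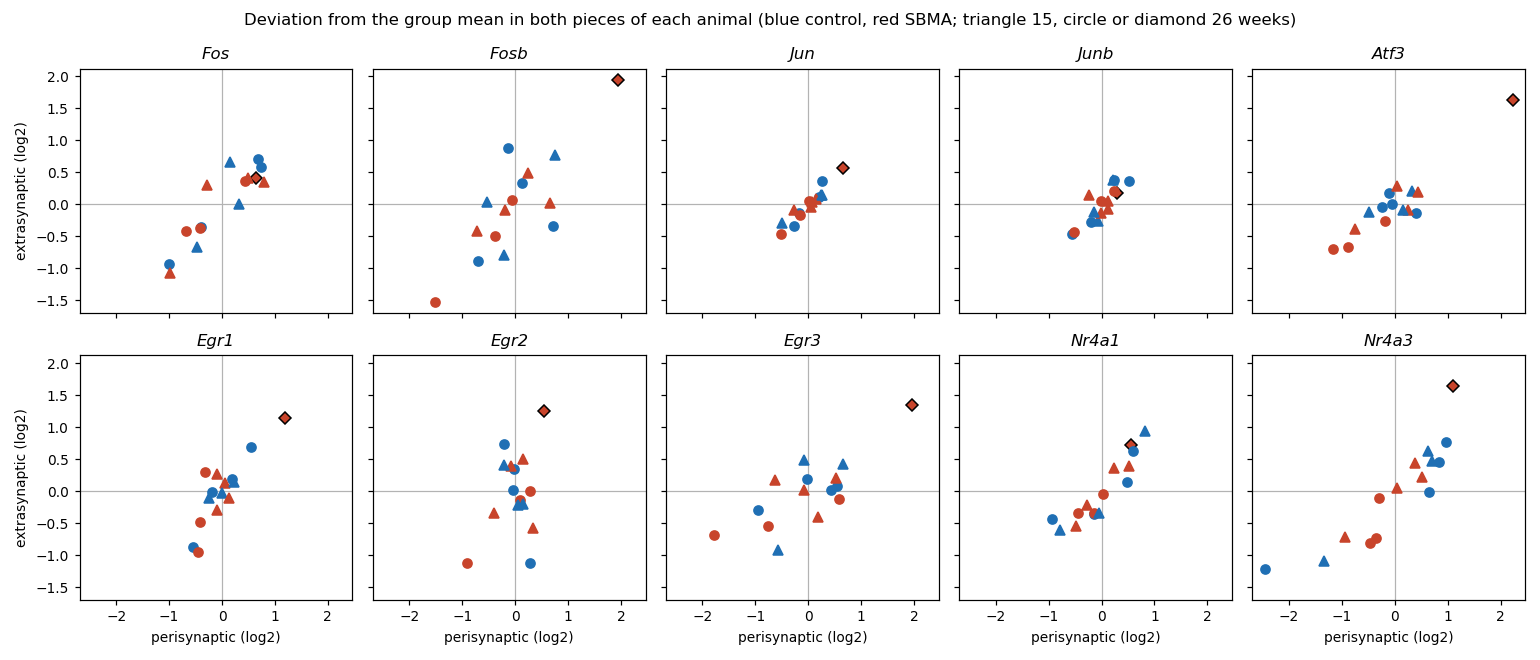
Deviation of each gene from its group mean (log2 CPM) in the perisynaptic piece (x axis) and the extrasynaptic piece (y axis) of each animal. SBMA 26-week replicate 1 lies above 0 on both axes for all 10 genes, and SBMA 26-week replicate 3 below 0 for all 10.

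After removal of the group means, the members fell into pairs of differing likeness over the 30 libraries, which come from 15 animals and so share animals and depth. The highest Pearson correlations were 0.79 for Fosb with Egr3 and for Fosb with Egr1, 0.77 for Jun with Atf3 and 0.73 for Fos with Junb. Without both libraries of SBMA 26-week replicate 1 they were 0.65, 0.63, 0.63 and 0.72. The lowest was -0.04 for Jun with Nr4a1, and -0.31 without that animal. The genes most like the mean of the 10 members were Thbs1 (0.87, and 0.82 without that animal), Emp1 (0.83, 0.72), Btg2 (0.82, 0.67), Otud1 (0.79, 0.66), Sh3bp2 (0.78, 0.60), Mafk (0.77, 0.74), Pspc1 (0.76, 0.63) and F3 (0.75, 0.63). Thbs1 encodes thrombospondin, F3 tissue factor, Btg2 an antiproliferative early gene and Mafk a small Maf factor that pairs with other basic leucine zipper proteins.

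Among 45 other immediate and delayed early genes, of which 41 were tested in each piece, the median genotype difference at 15 weeks was -0.47 in perisynaptic muscle, with 39 below 0. In extrasynaptic muscle it was -0.39, with 36 below 0. Calls at that age were few: Nfil3, a basic leucine zipper repressor, fell in both pieces (-0.90 ± 0.152 and -0.88 ± 0.156, edgeR adjusted p = 0.0241 and 0.0107), and Errfi1, an inhibitor of the EGF receptor, fell in the extrasynaptic piece (-0.94 ± 0.194, adjusted p = 0.0248). At 26 weeks 1 rose and 6 fell in perisynaptic muscle, and 2 rose and 10 fell in extrasynaptic muscle, with medians of -0.29 and -0.31. These counts stand beside the 14% and 32.2% of all genes called at that age. Nfil3 was at 20.8 ± 0.648 CPM in SBMA and 51.1 ± 6.54 in controls (SD, n = 4 each; perisynaptic log2 difference -1.29 ± 0.143, edgeR adjusted p = 3.03e-05). Cebpb, a factor of inflammation and muscle repair, fell in both pieces (-1.24 ± 0.164 and -1.28 ± 0.168), as did Arc, an activity-regulated gene of neurons (-1.53 ± 0.414 and -1.61 ± 0.322). Tiparp, an ADP-ribosyltransferase that the aryl hydrocarbon receptor induces, rose by 0.98 ± 0.278 and 1.05 ± 0.2. Between the ages in SBMA mice Socs3, a feedback inhibitor of cytokine signals, rose in perisynaptic muscle (1.08 ± 0.289), and Csrnp1, Trib1 and Tiparp rose in extrasynaptic muscle (1.00 ± 0.25, 0.44 ± 0.113 and 0.76 ± 0.197). These calls among the 41 tested stand beside 3.95% of all genes called in the perisynaptic and 12.1% in the extrasynaptic comparison. Dusp6, a phosphatase that turns off ERK and is itself induced by it, was the list member called higher in the perisynaptic piece in all 4 groups, by 0.77 to 0.97. Of all genes, 0.948% to 2.07% were called between the pieces in these groups.

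Lists of partners gave further counts for the genotype comparison, and none of their members was called at 15 weeks. Their counts at 26 weeks stand beside the 14% of all genes called in perisynaptic and the 32.2% called in extrasynaptic muscle. Among 17 upstream regulators of early genes, 1 rose at 26 weeks in perisynaptic muscle, Crtc1, a CREB coactivator (0.47 ± 0.138), and 5 rose in extrasynaptic muscle, led by Crtc1 (0.58 ± 0.121) and Elk1, a partner of serum response factor (0.28 ± 0.0822). Of 8 inhibitors, Jdp2, which represses AP-1, fell in both pieces (-0.61 ± 0.123 and -0.51 ± 0.111). In extrasynaptic muscle Spry2, an inhibitor of ERK signalling, rose (0.40 ± 0.0936) and Batf3, which competes within AP-1, fell (-1.17 ± 0.379). The integrated stress response is the route by which Atf4 is known to induce Atf3. Of 9 genes of that response, 2 rose and 1 fell in perisynaptic muscle and 2 rose and 2 fell in extrasynaptic muscle at 26 weeks. Ppp1r15a, which restores translation, rose by 0.99 ± 0.181 and 1.06 ± 0.151 on the log2 scale. Gadd45a, a growth arrest gene, rose by 0.73 ± 0.184 and 0.60 ± 0.195. Chac1, which degrades glutathione, fell in both pieces (-2.03 ± 0.496 and -1.97 ± 0.405), and Atf4 itself fell in extrasynaptic muscle (-0.40 ± 0.114, edgeR adjusted p = 0.0146). Of 7 muscle glucose genes reported as targets of Nr4a1, Slc2a4, the insulin-responsive glucose transporter, and Pgam2, a glycolytic enzyme, fell at 26 weeks in perisynaptic muscle (-0.57 ± 0.107 and -0.88 ± 0.196) and in extrasynaptic muscle (-0.67 ± 0.0893 and -1.02 ± 0.121). In extrasynaptic muscle Eno3 (-0.42 ± 0.108) and Phka1 (-0.45 ± 0.159) also fell and Fbp2, a gluconeogenic enzyme, rose (0.44 ± 0.154).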

How the data were processed

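Per the labels' protocols, miRNeasy RNA with DNA digestion went into a KAPA stranded mRNA kit. The deposited values are raw counts per gene, made by the authors with featureCounts on mm10, per the submitters' processing notes. Neither aligner nor annotation release nor use of strand is given in the sources used here. Of 33076 gene identifiers, 33064 matched GENCODE vM21. Totals of 16280873 to 34694446 counts per library limit precision most for Egr2, Egr3 and Fosb. Genes passed filterByExpr (minimum count 10, minimum total 15). The edgeR 4.0.16 quasi-likelihood test (R 4.3.3, trimmed mean of M-values scaling) was fitted per piece for genotype and age, and with an animal term over all 30 libraries for piece; p-values were Benjamini-Hochberg adjusted over all genes tested, with a threshold of 0.05. The test was checked on simulated data. CPM on a log2 scale used a prior count of 2. Alternatives were DESeq2 1.42.0, other scalings, no filter, blocks by replicate number or animal number run, fewer libraries and each animal left out. The members and lists were chosen with earlier results of these data known. Named genes are the members and the 8 genes most like the members' mean. From the wider early gene list up to 4 called genes per comparison are named by smallest p, and up to 2 from each other list. Where 5 or fewer were called all are named, except for the upstream regulators in extrasynaptic muscle, of which 2 are named. Markers of muscle fibre, endothelium, macrophage, neutrophil, fibroadipogenic progenitor, satellite cell, mesothelium, smooth muscle, adipocyte and red blood cell were summed as CPM. Of the Schwann cell markers, those not named are not reported here.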

Additional observations from a re-analysis of the deposited data

Results flagged for a closer look

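In 60 groups of 4 libraries, a member's highest and lowest CPM values were compared with the others. In 7 groups a library was set apart by more of the group's range than Dixon's 95% limit allows. That limit sets apart about 1 in 20 among independent, normally distributed values. Members and pieces share animals, so the 60 groups are not independent and the 7 cannot be set against that rate. In 6 of the 7 the library belonged to SBMA 26-week replicate 1, always as the highest. Its Atf3 level was 147 CPM in perisynaptic muscle (next highest 27.3) and 91.8 CPM in extrasynaptic muscle (next 24.8). Nr4a3 was at 25.7 CPM in its perisynaptic piece (next 9.7) and 57.9 CPM in its extrasynaptic piece (next 17.1). Egr1 stood at 73.3 CPM in its perisynaptic piece (next 25.4), and Egr3 at 3.2 CPM in its extrasynaptic piece (next 1.1). The remaining library was the extrasynaptic one of SBMA 15-week replicate 3, where Fos was at 5.19 CPM and the next lowest animal at 13.5 CPM.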

How the results depend on the processing

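Of 2100 values of single members under other settings or with an animal left out, none reversed a called direction, 45 lost a call and 49 gained one. Only members called in the main fit could lose a call, so the 45 are a larger share of the values at risk. Another 37 moved: an uncalled value changed sign by a standard error or more, or a called member had no adjusted p. Counts of members called moved more, and the percent in parentheses is the share of all genes called under the same setting. For SBMA against control, perisynaptic 15 weeks: 1 with DESeq2 (0.820%) and 1 without the filter on low counts (0.220%). Perisynaptic 26 weeks: 4 without the filter (6.07%), 0 with only the libraries compared (8.68%), 0 within the higher number run (5.07%), and 0 to 4 with an animal left out. Extrasynaptic 15 weeks: 2 without the filter (0.948%), 0 with a number run block (0.927%) and 0 to 1 with an animal left out. Extrasynaptic 26 weeks: 1 within the lower number run (25.9%) and 1 to 3 with an animal left out. For age in SBMA, perisynaptic: 3 with DESeq2 (6.83%), 4 without the filter (1.83%), 4 with total counts alone (8.49%) and 0 to 3 with an animal left out; extrasynaptic: 1 to 4 with an animal left out. For genotype by age, extrasynaptic: 2 with DESeq2 (4.53%), 2 without the filter (0.928%) and 0 to 1 with an animal left out. For genotype by piece at 26 weeks: 1 without the filter (0.197%). Between pieces, the fit with no animal term called 0 in 26-week controls (0.837%), 15-week SBMA (0.750%) and 26-week SBMA (0.998%), and the fit without the filter called 3 in each (2.37%, 1.28% and 5.54%). In 26-week SBMA DESeq2 (3.13%) and total counts alone (2.60%) each called 2. Leaving out an animal gave 0 to 1, 0 and 0 to 2 in those 3 groups. The cause of these changes was not tested.

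Same-numbered animals of both genotypes did not deviate together in every pair (3 of 4 pairs above a correlation of 0.1 at 26 weeks in each piece, 0 of 3 at 15 weeks), so the numbers were not taken as pairs. With a replicate block perisynaptic Atf3 at 26 weeks was 1.34 (edgeR adjusted p = 0.0856) and Nr4a1 -0.97 (adjusted p = 0.0331). Total-count scaling raised the median of all genes in the genotype comparisons to between 0.07 and 0.24, and the genes called in extrasynaptic muscle at 15 weeks from 190 to 2356. Leaving SBMA 26-week replicate 1 out of the correlations was chosen after seeing the data.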
